A study of Mus musculus with 2 samples.

Results

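The genes described here are 42 mouse genes of DNA repair and of the DNA damage checkpoint, chosen by symbol from a list that covers homologous recombination, the Fanconi pathway, base excision repair, mismatch repair, end joining by polymerase theta and the checkpoint. All 42 are among the 22060 genes of the deposited count table. They were read in 2 RNA sequencing libraries of bone marrow-derived macrophages from C57BL/6 mice aged 8 weeks. Marrow cells had grown for 7 days with M-CSF, and no treatment followed (0 h). The first library, WT, comes from wild-type cells. The second, T403A, comes from cells with STAT2 T403A, in which threonine 403 of this interferon signalling protein is replaced by alanine. The sources used here do not give the number of animals behind each library or how the allele was made.

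DNA repair keeps the genome intact while cells copy and divide it. Homologous recombination mends double-strand breaks from the sister chromatid, the Fanconi pathway unhooks crosslinks between the strands, and base excision repair removes single damaged bases. Mismatch repair corrects errors of replication, and polymerase theta joins resected ends at short homologies. The checkpoint kinases sense stalled forks and breaks and hold the cell cycle. Many of these genes are known to be transcribed most in S and G2 phase, under E2F factors. M-CSF is a growth factor for macrophage precursors, so cultures of this kind can hold cycling and resting cells together.

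Count totals were 16033032 in WT and 18658381 in T403A. There were no replicates, with 1 library for each genotype. The comparisons are therefore between libraries, not genotypes, and carry no p-value. Levels are in CPM, the counts scaled to a common library size by TMM, and each T403A to WT ratio has an exact 95% interval that covers counting error only. A gene was called higher or lower when its ratio reached 1.5-fold and its interval excluded 1. Genes with at least 20 counts over both libraries were treated as measured, which kept 40 of the 42 genes and 11199 of all genes. The level of Stat2 itself was 376.0 CPM in the WT library against 84.4 in T403A. The macrophage genes Csf1r, at 7146.2 and 5503.3 CPM, and Cd68, at 947.3 and 1188.6 CPM, were abundant in both libraries.

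Most repair and checkpoint genes were read more often in T403A. Among the 40 measured, 21 were called higher, 1 was called lower and 18 were neither, and 36 of the 40 ratios were above 1. Among all measured genes 13.5% were called higher and 10.8% lower by the same rule. The listed genes were chosen with earlier results of these data known, so this comparison is a description and not a test. The median log2 ratio was 0.77 over the 40 genes, a 1.71-fold difference, and 0.01 over all measured genes. Summed over all 42 genes, the level was 428.9 CPM for WT against 583.4 for T403A, so the sum, which Parp1 and Rad50 weigh on most, was 1.36-fold higher. Scaling by library totals raised every log2 ratio by 0.19. The calls over all genes then moved from 1515 higher and 1214 lower to 2290 higher and 890 lower, and those of the repair genes from 21 to 26 higher, against 20.4% of all genes, with 1 lower. With at least 100 counts required, 11 of 28 genes were called higher, against 11.7% of all genes.

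**Figure D1:**
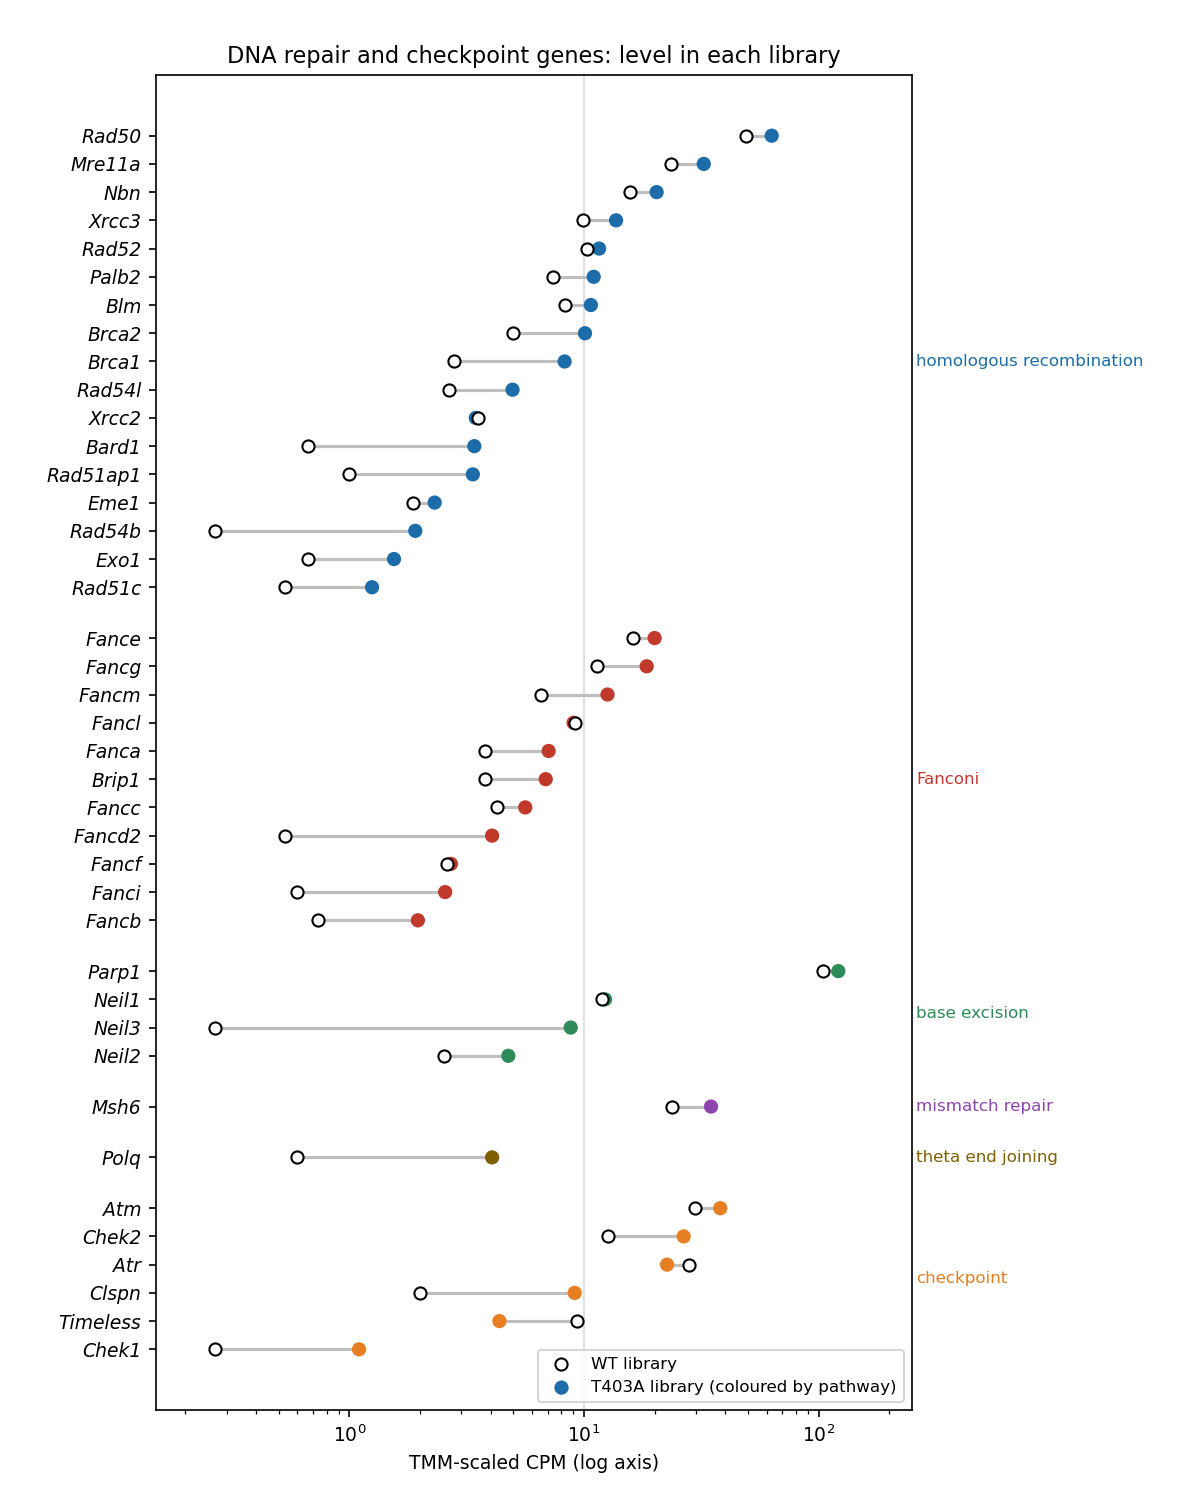
TMM-scaled CPM (log axis) of the 40 measured repair and checkpoint genes, 1 row per gene, in the WT library (open points) and the T403A library (points coloured by pathway). T403A lies to the right for 36 genes, and the gap is widest for Neil3, from 0.267 to 8.78 CPM.

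Abundance and ratio went together. Among the 27 measured genes with a mean below 10 CPM, 19 were called higher and 1 lower, with a median log2 ratio of 1.01. Of all measured genes in that range, 27.7% were called higher and 11.6% lower, with a median of 0.23. Among the 13 genes at or above 10 CPM only Chek2 and Fancg were called higher and none was lower, with a median of 0.36. Of all genes at that level 8.3% were called higher and 10.6% lower, with a median of -0.03. A low WT count enters both the mean and the ratio, so the gradient is given as a description.

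**Figure D2:**
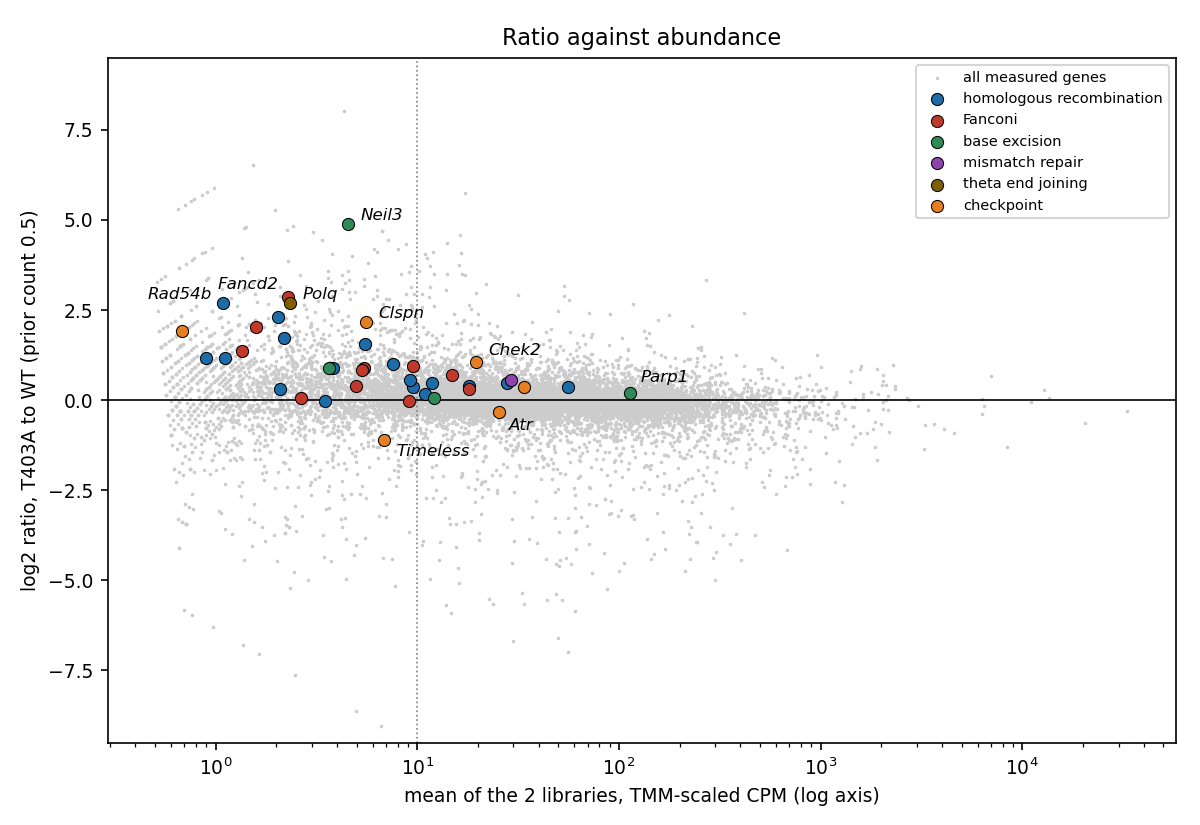
Log2 ratio of T403A to WT against mean CPM (log axis) for all 11199 measured genes (grey) and the 40 repair and checkpoint genes (coloured by pathway), with a dotted line at 10 CPM. The coloured points left of the line reach a log2 ratio of 4.87 at Neil3, while Parp1, the most abundant, lies at 0.21.

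The promoters were read for the E2F consensus, since E2F factors are known to drive genes of S phase. RefSeq windows on GRCm38.p6, from 250 bases before to 50 bases after a start, were found for 35 of the 42 genes. They were searched on both strands for TTTCCCGC, TTTCGCGC, TTTGCCGC and TTTGGCGC. At least 1 match was found in 7 of the 35 genes (20%), against 2.26% of all 32851 windows and 4.81% of the 8938 measured genes with a window. Of the 7, 6 were called higher (Bard1, Brca2, Chek2, Clspn, Fancg and Rad51c) and Msh6 was neither. Of the 26 other measured genes with a window, 11 were called higher. Over all measured genes that hold a match, 14.9% were called higher, close to the 13.5% of all genes. The matches follow with 20 bases on either side, on the strand of the gene and with the match in capitals. TTTCCCGC and TTTCGCGC appear as GCGGGAAA and GCGCGAAA where the match is on the opposite strand. Positions count from the annotated start, and Rad51c has a window at each of its starts.
Bard1 (chr1:71103154-71103201, minus strand, match from -209): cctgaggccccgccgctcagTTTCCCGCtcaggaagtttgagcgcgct
Brca2 (chr5:150522433-150522480, plus strand, match from -168): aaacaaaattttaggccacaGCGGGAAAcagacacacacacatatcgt
Chek2 (chr5:110839811-110839858, plus strand, match from -152): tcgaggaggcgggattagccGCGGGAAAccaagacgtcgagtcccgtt
Clspn (chr4:126556981-126557028, plus strand, match from 22): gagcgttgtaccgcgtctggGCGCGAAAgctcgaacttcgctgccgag
Fancg (chr4:43010326-43010373, minus strand, match from -52): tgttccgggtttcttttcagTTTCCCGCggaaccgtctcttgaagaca
Msh6 (chr17:87975045-87975092, plus strand, match from 16): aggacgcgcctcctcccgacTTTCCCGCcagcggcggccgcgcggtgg
Rad51c, first window (chr11:87404468-87404515, minus strand, match from 12): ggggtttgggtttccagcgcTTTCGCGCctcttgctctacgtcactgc
Rad51c, second window (chr11:87404932-87404979, minus strand, match from -5): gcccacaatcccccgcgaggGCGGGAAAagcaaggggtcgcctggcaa

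None of the E2F forms searched was whole within the windows of Neil3, Polq, Fanci, Brca1 or Chek1, which were all called higher. The Chek1 window ends in GCGGGAA and the Neil3 window in GCGGGA, the first letters of GCGGGAAA. A match that runs past a window end would be missed, and other E2F forms were not searched. Other elements known from cell cycle promoters were counted in the same windows. The cell cycle homology region, TTTGAA or the self-complementary TTTAAA, was in 6 of the 35 genes (17.1%), in 27.6% of all windows and in 22.4% of measured genes with a window. The CCAAT box was in 19 of 35 (54.3%) and in 37.4% of all windows, and in 43.4% of measured genes with a window. Of 18 measured repair and checkpoint genes with a CCAAT box 9 were called higher, and of 15 without it 8. The median GC content was 58.0% over the 35 genes and 60.7% over measured genes.

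In homologous recombination, 8 of 17 measured genes were called higher, none was lower, and the median log2 ratio was 0.57. Over all measured genes 13.5% were called higher and 10.8% lower, and over those with a mean below 10 CPM 27.7% and 11.6%. The genes around BRCA1 and BRCA2, which act on resected DNA, summed to 15.9 CPM in the WT library and 32.8 in T403A, and 3 of these 4 genes were called higher. Brca1 (chromosome 11, 101488764 to 101551955, minus strand, GRCm38) had 42 counts in the WT library against 165 in the T403A library. These are 2.80 and 8.27 CPM, and a level 2.96-fold higher (2.10 to 4.25). Bard1, the obligate RING partner of BRCA1 (chromosome 1, 71027498 to 71103146, minus strand), had 10 and 68 counts, 5.12-fold higher (2.62 to 11.1). Brca2, which acts in strand exchange, had 75 and 202 counts, 2.03-fold higher (1.55 to 2.68), with exons that overlap those of Gm42529 on the opposite strand by 41 bases. Palb2, the bridge between BRCA1 and BRCA2, had 111 and 219 counts. Its 1.48-fold ratio (1.18 to 1.88) lay just under the fold for a call, and it was called higher with library totals (log2 ratio 0.76) and upper quartile scaling (0.64). Of these genes Bard1 had the largest ratio and Palb2 the highest count.

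The genes of motor and helper proteins of strand exchange were all 3 called higher. Their means lay below 10 CPM, where 27.7% of all measured genes were called higher. Rad54b, a DNA translocase (chromosome 4, 11558922 to 11615805), had counts of 4 (WT) and 38 (T403A), 7.15-fold higher (2.57 to 27.6), but 2075 bases of its exons overlap those of Fsbp on the same strand and of Gm11832 on the opposite strand. Its relative Rad54l had 40 and 99 counts, 1.86-fold higher (1.28 to 2.76), with exons that overlap those of Lrrc41 on the opposite strand by 1184 bases. Rad51ap1, which stimulates strand exchange, had 15 and 67 counts, 3.36-fold higher (1.90 to 6.33). Of Rad51c, Xrcc2 and Xrcc3, which act in strand exchange, 1 was called. Rad51c had 8 and 25 counts, 2.35-fold higher with an interval whose lower end is 1.03. Xrcc2 had 53 and 69 counts (ratio 0.979, 0.675 to 1.43), and Xrcc3 had 148 and 273 (1.39, 1.13 to 1.71). Rad51b, with 7 and 9 counts, was below the count minimum. Rad52, an annealing protein, was at 10.3 and 11.6 CPM and met no call.

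Genes that process DNA ends and joints were mostly neither higher nor lower. The MRN complex, which senses and trims breaks, had ratios within a narrow range in its 3 subunits. Mre11a had 351 and 647 counts (1.39, interval 1.22 to 1.58), Nbn 235 and 407 (1.3, 1.11 to 1.54) and Rad50 736 and 1258 (1.29, 1.17 to 1.41). All 3 intervals lay above 1 and none of the ratios reached 1.5-fold, although Mre11a was called higher with library totals (log2 ratio 0.66). Exo1, the exonuclease of long-range resection and of mismatch repair, had 10 and 31 counts, 2.33-fold higher (1.11 to 5.33). Blm, the helicase that dissolves double Holliday junctions, was at 8.33 and 10.7 CPM (1.29, 1.03 to 1.62). Eme1, a subunit of the MUS81 nuclease, had 28 and 46 counts (1.24, 0.756 to 2.05).

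In the Fanconi pathway 7 of 11 genes were called higher, none was lower, and the median log2 ratio was 0.85. The shares called higher were 13.5% of all measured genes and 27.7% of those with a mean below 10 CPM. The 2 genes of the clamp that the pathway ubiquitinates were both called higher. Fancd2 (chromosome 6, 113531682 to 113597017, plus strand) had counts of 8 (WT) and 81 (T403A), 7.62-fold higher (3.69 to 18.2). Its partner Fanci (chromosome 7, 79391929 to 79450264, plus strand) had 9 and 51 counts, 4.26-fold higher (2.08 to 9.85). The exons of Fancd2 overlap those of Fancd2os by 257 bases and the exons of Fanci those of Polg by 921 bases, on the opposite strand in each case. Without a known strand setting, reads there cannot be assigned to a gene.

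The 8 genes of the core complex, the ubiquitin ligase that acts on the clamp, had ratios from 0.988 to 2.67 with its anchor Fancm included. Summed, they reached 54.7 CPM in the WT library and 77.4 in T403A, with a median log2 ratio of 0.54. Fancb, part of the catalytic module, had 11 and 39 counts, 2.67-fold higher (1.34 to 5.77). Fancm, the translocase that recruits the complex, had 98 and 251 counts, 1.93-fold higher (1.52 to 2.46). Fanca had 57 and 141 counts (1.86-fold, 1.36 to 2.58) and Fancg 171 and 369 (1.62-fold, 1.35 to 1.96), and both were called higher. The exons of Fanca overlap those of Zfp276 by 920 bases, on the opposite strand. Those of Fancm overlap Gm47869 and Gm47870 by 738 bases, also on the opposite strand. Fancl, which encodes the catalytic RING subunit, had 137 and 180 counts with a ratio of 0.988 (0.787 to 1.24). Fance had 243 and 398 counts, Fancc 64 and 112 and Fancf 39 and 54, and none of these 3 was called. Brip1, the helicase that binds BRCA1, had 57 and 137 counts, 1.81-fold higher (1.32 to 2.51). The interval of Fancd2 lay wholly above those of Fancl, Fance, Fancc, Fancf, Fancg, Fanca and Fancm and overlapped that of Fancb.

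The 3 NEIL glycosylases, which cut out oxidised bases, spanned ratios from near 1 to the highest of the listed genes. Neil3 (chromosome 8, 53586867 to 53639065, minus strand) had counts of 4 (WT) and 175 (T403A), which is 0.267 and 8.78 CPM. That is the largest ratio among the measured repair and checkpoint genes, 32.9-fold (12.6 to 122.1), and no annotated gene overlaps its exons. Neil2 had 38 and 95 counts, 1.88-fold higher (1.28 to 2.82). Neil1 had 179 and 246 counts, 11.9 and 12.3 CPM, with a ratio of 1.03 (0.849 to 1.26). The 3 intervals did not overlap. Per kilobase of exon Neil1 was 3rd of the 40 measured genes in WT and 6th in T403A, whereas Neil3 went from 39th to 15th.

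Parp1, the break sensor that makes poly(ADP-ribose), was the most abundant of the 42 genes, with 1573 and 2419 counts. Its ratio of 1.16 (1.09 to 1.23) met no call. Ung, the uracil glycosylase gene, had counts of 0 (WT) and 12 (T403A) and was below the count minimum. By the exact interval it was at least 2.09-fold higher. Against the 3 counts that a count of 0 allows (0.200 CPM in WT), its ratio was 3.01, without the counting error of the T403A count. Msh6, which recognises mismatches, had 355 and 694 counts with a ratio of 1.47 (1.29 to 1.68). It was called higher with library totals (log2 ratio 0.75) and upper quartile scaling (0.63). Polq, which encodes polymerase theta (chromosome 16, 37011786 to 37095417, plus strand), had 9 and 81 counts, 6.77-fold higher (3.40 to 15.3).

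In the checkpoint, the effector kinase genes Chek1 and Chek2 and the mediator gene Clspn were called higher, and the apical kinase genes Atm and Atr met no call. Chek2, the kinase downstream of ATM (chromosome 5, 110839979 to 110874145, plus strand), had counts of 190 (WT) and 530 (T403A), 2.10-fold higher (1.77 to 2.49). Per kilobase it was the 7th of the 40 genes in WT and the 3rd in T403A. Chek1, the kinase downstream of ATR, had 4 and 22 counts, 4.14-fold higher (1.41 to 16.5). Clspn, the adaptor through which ATR reaches CHEK1 (chromosome 4, 126556935 to 126593903, plus strand), had 30 and 182 counts, 4.56-fold higher (3.09 to 6.96). Atm had 445 and 760 counts with a ratio of 1.28 (1.14 to 1.45), an interval above 1 that overlaps that of Chek1. Atr had 422 and 450 counts with a ratio of 0.802 (0.701 to 0.918), short of the fold for a call.

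Timeless was the only measured gene called lower among the listed repair and checkpoint genes. Its product protects replication forks and works beside CLSPN. Timeless (chromosome 10, 128232065 to 128252941, plus strand) had counts of 140 (WT) and 87 (T403A), 9.33 and 4.36 CPM, which is 2.14-fold lower (1.63 to 2.83). The counts of Clspn, 30 and 182, lay in the opposite order. Tipin, the binding partner of TIMELESS, had 101 and 137 counts, 6.73 and 6.87 CPM, and was named for this comparison after its values were seen. Timeless lies 17.6 kb from Stat2 on the same chromosome, and its exons overlap those of Gm26847 on the opposite strand by 111 bases. The part that either plays in the difference was not tested.

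**Figure D3:**
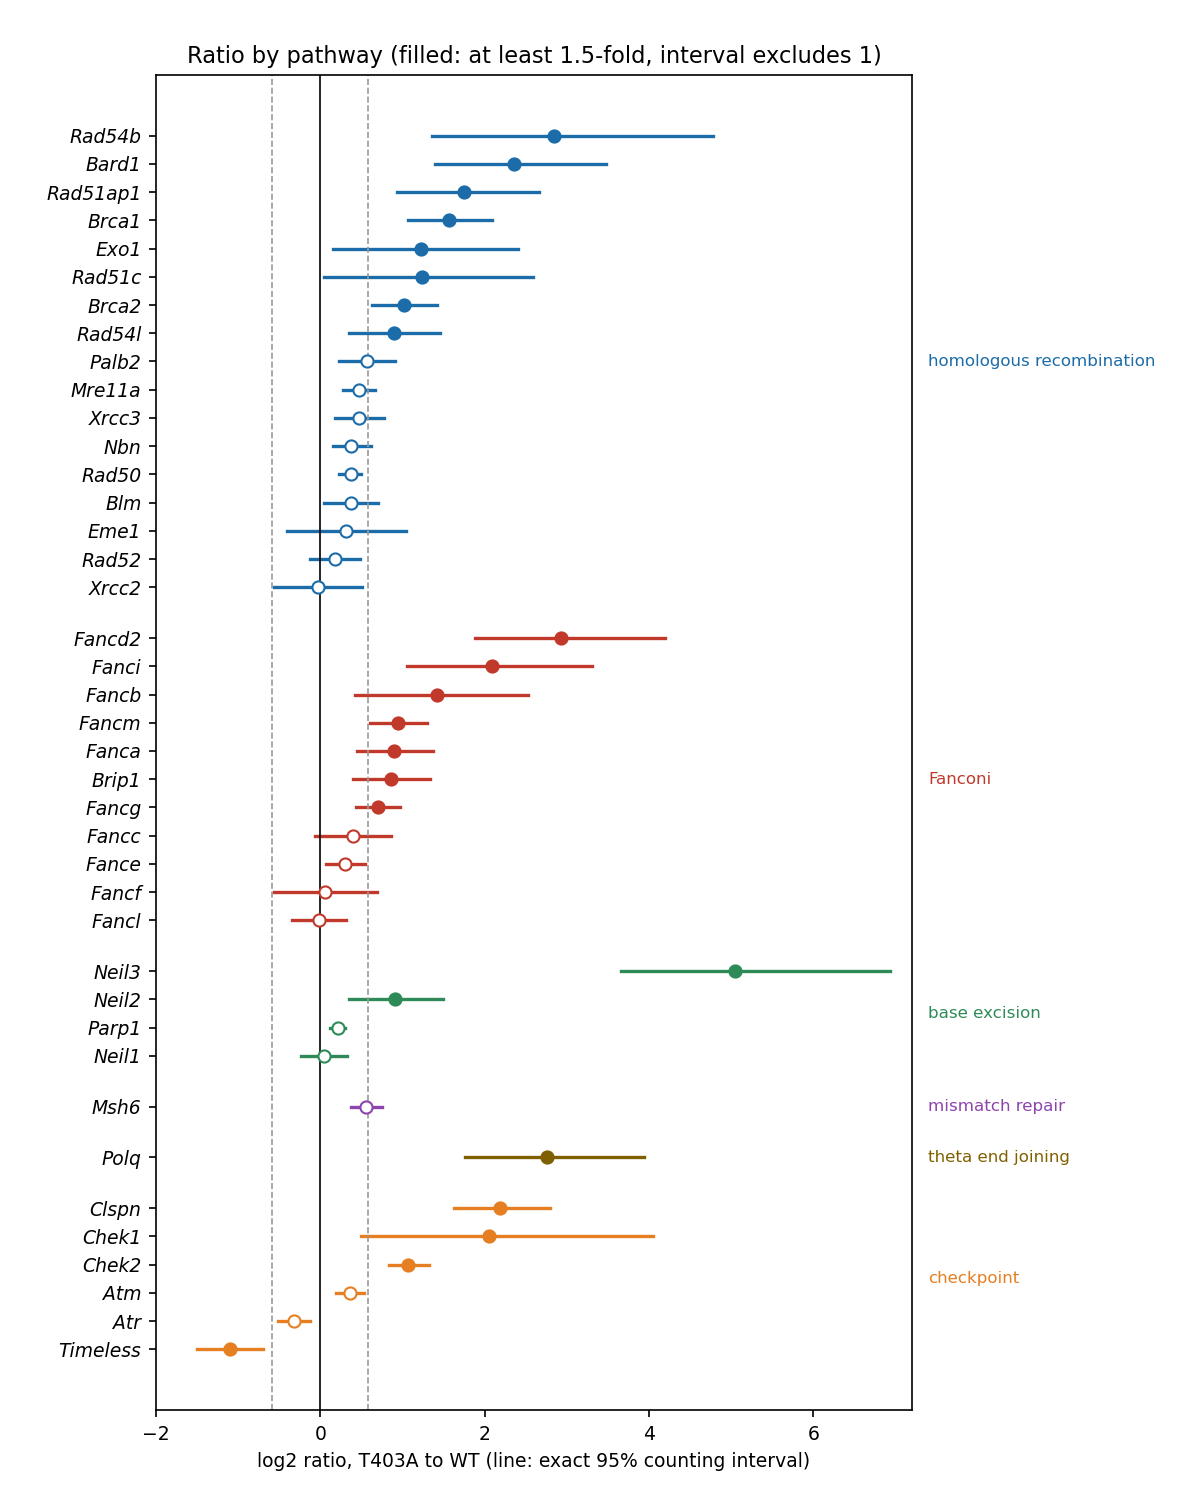
Log2 ratio of T403A to WT for the 40 measured genes by pathway, with exact 95% counting intervals (lines), filled points for called genes and dashed lines at 1.5-fold. Neil3 is farthest right with an interval of 3.66 to 6.93, and Timeless is the only filled point left of 0.

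The order of levels per kilobase of deposited gene length differed between the libraries for several of these genes. Parp1 led in both libraries, at 19.8 CPM per kilobase in WT and 22.9 in T403A, followed by Rad50 at 9.13 and 11.7. The lowest of the 40 measured genes was Rad54b in WT, at 0.0461, and Exo1 in T403A, at 0.185. Clspn went from rank 29 to rank 17 and Brca1 from 28 to 20. Timeless went from rank 15 to 27 and Xrcc2, which had nearly equal levels of 0.677 and 0.663 CPM per kilobase, from 19 to 30. Neighbouring ranks rest on close values, such as 0.510 CPM per kilobase for both Fancc and Brip1 in WT, and cannot be told apart by counting error.

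Other repair and checkpoint genes, with classical end joining and nucleotide excision repair included, had a median ratio closer to 1. Of 109 measured genes on these lists 23 were called higher and 1 lower, with a median log2 ratio of 0.09. The shares over all measured genes were 13.5% higher and 10.8% lower. Abundance differed too, as 103 of these 109 genes had at least 100 counts, against 28 of the 40 listed genes. Among 20 other genes of homologous recombination, 2 were called higher, among them the resolvase gene Gen1 (25 and 141 counts, 4.24-fold, 2.76 to 6.78). The most abundant, Sfr1, was at 89.7 and 84.5 CPM. In the Fanconi list 1 of 11 was higher, Ube2t, the ubiquitin-conjugating enzyme of the pathway (20 and 52 counts, log2 ratio 0.95, interval 0.20 to 1.79). Among the mismatch repair genes and replicative polymerase subunits 5 of 10 were higher, from Msh3 at 1.53-fold (1.25 to 1.88) to the polymerase gene Pole at 4.79-fold (3.04 to 7.88). In base excision 5 of 18 were higher, with the adenine glycosylase gene Mutyh at 2.35-fold on 8 and 25 counts (1.03 to 6.03). The abasic site nuclease gene Apex1 was the 1 lower gene, 1.85-fold (1.37 to 2.52) on 106 and 76 counts, with exons that overlap those of Pip4p1. The exons of Pole and Msh3 also overlap those of an opposite-strand gene.

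In end joining by the classical route none of 12 measured genes was called, and log2 ratios ran from -0.42 to 0.42. Its most abundant gene Dclre1c, the nuclease Artemis, was at 74.1 and 75.3 CPM. In nucleotide excision repair 1 of 16 was called higher, Uvssa (342 and 721 counts, 1.59-fold, 1.39 to 1.81), and Ddb1 was at 296.4 and 310.1 CPM. Of 22 other checkpoint genes 9 were higher and none lower. The largest ratio was that of the mitotic phosphatase gene Cdc25c, 19.2-fold on 2 and 51 counts (5.05 to 162.7), and the smallest among those called that of Topbp1, an activator of ATR, 1.54-fold (1.42 to 1.68). Tlk1 was at 114.5 and 108.5 CPM. Targets of p53, a readout of checkpoint signalling, were called higher in 2 of 18 (Polk 1.70-fold, 1.45 to 1.99, and Bbc3 1.65-fold, 1.40 to 1.95) and lower in 1. The lower gene was Cdkn1a, the cell cycle inhibitor p21, with levels of 121.3 CPM (WT) and 65.0 CPM (T403A), a 1.87-fold difference (1.74 to 2.0), with exons that overlap those of AC167363.2 on the opposite strand. Mdm2 was at 206.7 and 155.0 CPM. By the same rule 13.5% of all measured genes were called higher and 10.8% lower.

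**Figure D4:**
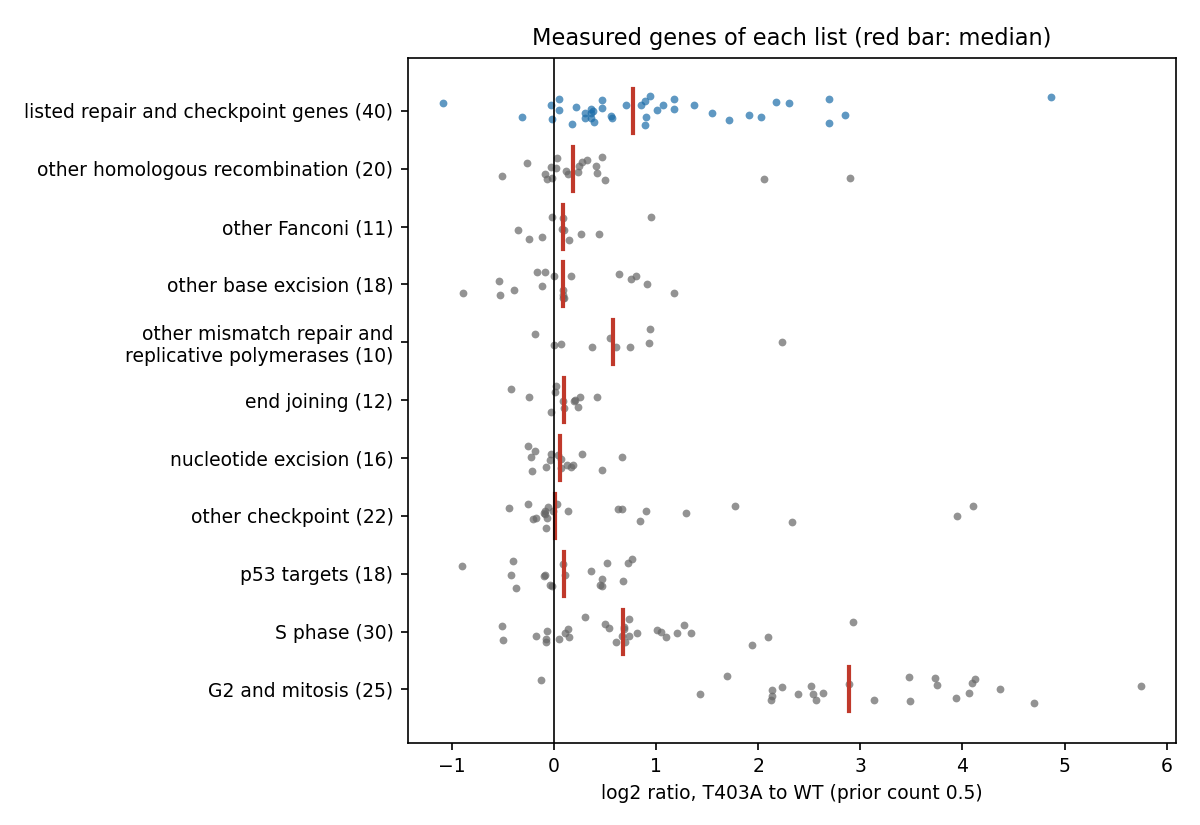
Log2 ratio of T403A to WT for the measured genes of each list (points, number in brackets) with the median of each list (red bar). The listed repair and checkpoint genes have a median of 0.77, between the 0.67 of the S phase list and the 2.89 of the G2 and mitosis list, and the other repair lists lie between 0.01 and 0.58.

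Lists of the cell cycle were higher in T403A beside the repair genes. Of 30 S phase genes 16 were called higher and none lower, with a median log2 ratio of 0.67. Of 25 genes of G2 and mitosis 24 were higher, with a median of 2.89. The shares over all measured genes were 13.5% higher and 10.8% lower. In S phase, Rrm2 had 30 and 309 counts (7.75-fold, 5.32 to 11.7), Rfc2 had the smallest ratio among those called at 1.52-fold (1.37 to 1.70), and Pcna was at 201.8 and 142.7 CPM. In G2 and mitosis the smallest ratio among those called was that of Cdk1, 2.71-fold (2.12 to 3.50). Summed, the S phase list reached 506.5 CPM (WT) and 560.0 CPM (T403A), and the G2 and mitosis list at 197.2 and 896.5 CPM. In bulk RNA a larger share of cycling cells and more RNA per cycling cell cannot be told apart, and the part of either in the repair genes was not tested.

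Markers of other cells were read in both libraries, at levels that ranged widely between lists. The calls below stand beside 13.5% higher and 10.8% lower over all measured genes, and each list is short. Of 7 progenitor markers 3 were measured, 1 of them higher and 2 lower, and the sum was 3.60 CPM (WT) and 2.06 CPM (T403A). The 10 neutrophil markers summed to 30.1 and 79.6 CPM, of which Mmp8 made up 21.4 and 68.2 CPM, while Ly6g and Elane had 0 counts in both libraries. Of the 6 measured neutrophil markers 3 were called higher, Mmp8 (3.19-fold, 2.82 to 3.61), S100a9 (2.07-fold, 1.33 to 3.31) and Ltf (1.93-fold, 1.20 to 3.19), and Camp was called lower. The 6 monocyte markers summed to 565.5 and 143.1 CPM, with 4 called lower. Lymphocyte (15.9 and 6.67 CPM), dendritic cell (3.67 and 2.41), erythroid and megakaryocyte (38.7 and 8.22) and stromal (8.87 and 3.71) markers summed to less in T403A. Of 10 macrophage markers 5 were called lower and none higher. The part of these cells in the repair genes was not tested.

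Several of the repair genes start close to a gene on the opposite strand, and these neighbours were compared after the values were seen. In 14 of the 42 genes the 5′ end lies within 1000 bases of the 5′ end of another gene of the table on the opposite strand. In 12 pairs both genes were measured. The repair genes of these pairs had a median log2 ratio of 0.73 and their neighbours one of -0.05. Of the repair genes 6 were called higher, and of the neighbours 2 were called higher and 2 lower. By the same rule 13.5% of all measured genes were called higher and 10.8% lower, so calls among so few neighbours are given as a description. Fancd2 and Emc3, a subunit gene of the membrane insertase EMC, start 30 bases apart. Emc3 was at 98.5 and 82.6 CPM (ratio 0.839, 0.781 to 0.9) where Fancd2 was 7.62-fold higher. Brca1 and Nbr1, an autophagy receptor gene, start 194 bases apart, and Nbr1 was at 208.2 and 205.4 CPM (0.986, 0.941 to 1.03). Chek2 and Hscb, an iron-sulfur cochaperone gene, start 202 bases apart. Hscb had 101 and 289 counts, 2.15-fold higher (1.71 to 2.73), the only neighbour called higher beside a repair gene called higher. The other neighbour called higher was Zfyve21 beside Xrcc3, at 1.69-fold (1.34 to 2.14). Mrpl27 beside Eme1 (log2 ratio -1.10) and Gas2 beside Fancf (-1.21) were called lower, and in both pairs the exons of the genes overlap.

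**Figure D5:**
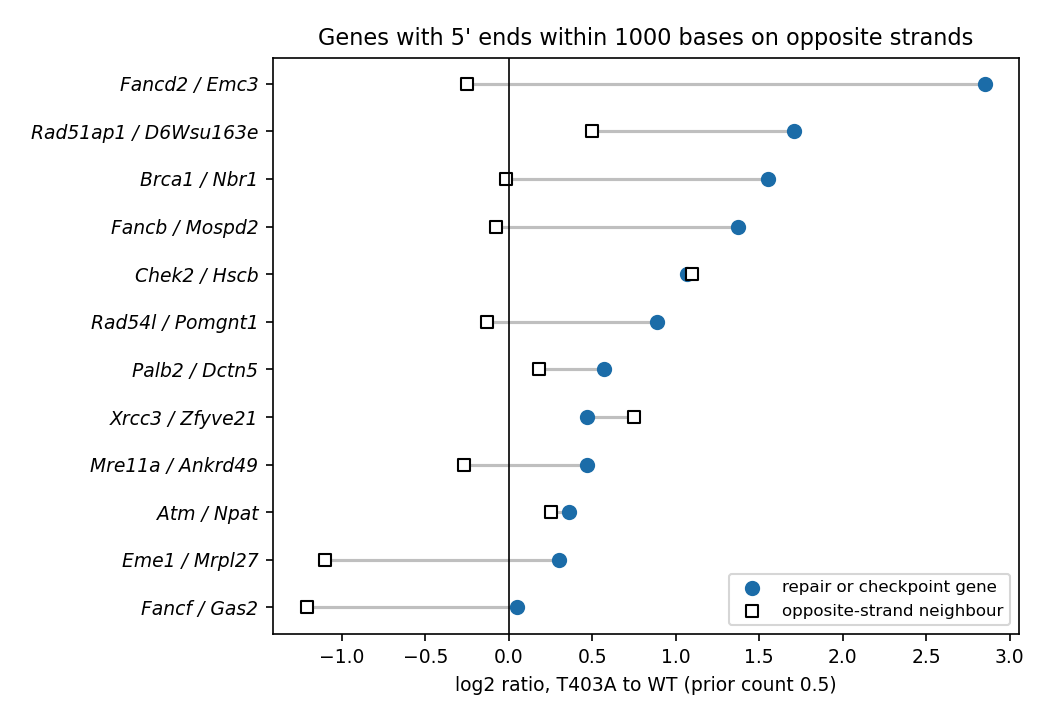
Log2 ratio of T403A to WT for 12 repair or checkpoint genes (filled circles) and their opposite-strand neighbours (open squares), with 5′ ends within 1000 bases. The pair Chek2 and Hscb lies together at 1.07 and 1.10, while Fancd2 and Emc3 lie farthest apart at 2.85 and -0.25.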

How the data were processed

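RNA sequencing libraries of 1 WT and 1 T403A macrophage culture were compared. The authors deposited whole-number read counts per Ensembl gene with a gene length, per the file headers. Per the submitters' processing notes, the build was GRCm38 and the tools included HTSeq 0.9.1, HISAT2, DESeq 1.30.0 and cutadapt 1.15. The sources used here do not give their roles, the annotation or the strand setting.

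Of 22060 genes, 21969 were given a symbol by Ensembl identifier, and positions come from GENCODE M21 on GRCm38. Counts were scaled with TMM (edgeR 4.0.16, R 4.3.3). CPM use the scaled totals, so a count of 3 is 0.200 CPM in WT and 0.150 CPM in T403A. Ratios carry exact 95% Clopper-Pearson intervals (scipy 1.17.1), and log2 ratios have a prior count of 0.5. PCR copies are not independent molecules, so intervals and bounds cover counting error only. The scoring was tested on simulated counts. Members and lists were chosen with earlier results of these data known. The rule for names took every listed member and, from each other list, the most abundant gene and the called genes with the largest and the smallest ratio. A gene that this rule names is not reported here. Other names, such as Bbc3, Tipin and the opposite-strand neighbours, were chosen after their values were seen. Shfm1, on the list of other recombination genes, matched no row. Alternatives were scaling, count minimum, fold, prior count and exon overlap. A planned comparison of NEIL proteins was not made here.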

Additional observations from a re-analysis of the deposited data

How the results depend on the processing

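For the 42 repair and checkpoint genes the median log2 ratio ran from 0.47 (at least 100 counts) to 1.07 (without genes whose exons overlap another gene) and stayed above 0 in each alternative tried. The number called higher was 26 of 40 with library totals (20.4% of all genes), 21 with DESeq2 size factors (DESeq2 1.42.0, 13.3%), 23 with upper quartile scaling (15.6%), 22 of 42 with no count minimum (11.5%) and 15 of 40 at 2-fold (7.21%). It was 11 of 28 with at least 100 counts (11.7%), where fewer genes are tested, and 14 of 21 without overlapping genes, for which all genes were not filtered in the same way. The number called lower was 0 without overlapping genes, which leaves out Timeless, and 1 otherwise. With library totals 5 genes gained a call (Palb2, Xrcc3, Mre11a, Fancc and Msh6), 2 of them also with upper quartile scaling, and none lost one. The same alternatives were applied to the other lists after seeing the data. For other repair genes the median was 0.28 with library totals, 9 were higher and 0 lower at 2-fold, and 11 were higher and 0 lower without overlapping genes, against 23 and 1. For p53 targets 6 were higher and the median was 0.29 with library totals, 0 were higher and 0 lower at 2-fold, and 0 were lower without overlapping genes. S phase genes had 9 higher at 2-fold, and G2 and mitosis genes a median of 2.57 without overlapping genes. Beyond the smaller number of genes, the cause of these changes was not tested. No paired analysis was possible because each group is 1 library. Depth limits the genes with fewer than 10 WT counts, such as Neil3, Rad54b and Chek1, whose intervals are the widest.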

Other observations

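Besides Timeless, 12 genes of the table lie within 100 kb of Stat2, and 7 of them were measured. Pan2, a deadenylase subunit gene, had levels of 21.4 CPM (WT) and 32.3 CPM (T403A, 1.51-fold higher, 1.32 to 1.73), and Coq10a of 16.4 and 27.5 CPM (1.68-fold higher, 1.44 to 1.96). Rbms2, Spryd4, Cnpy2, Cs and Ankrd52 met no call, and the citrate synthase gene Cs had a ratio of 1.00 (0.961 to 1.05). Timeless was the only one of the 8 measured genes of this window, other than Stat2, to be called lower, and 2 were called higher. Among all measured genes 10.8% were called lower and 13.5% higher, so 1 lower gene in 8 is near the share over all genes.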
